A study of Mus musculus with 6 samples.

Results

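The Msx homeobox factors of the mouse are encoded by 3 genes, *Msx1*, *Msx2* and *Msx3*. They were taken by name and found on the arrays through the RefSeq accessions of the array design, which gave 3 of the 20145 genes that could be matched, each with 1 probe. Total RNA of whole uteri, taken without embryos on gestation day (GD) 3.5 of a natural pregnancy, had been hybridized to 6 Agilent 1-colour arrays. The 3 *Sox17* f/f samples came from females that carry the floxed *Sox17* allele and no recombinase (WT in the labels), and the 3 *Sox17* ed/ed samples came from LtfiCre/+ *Sox17* f/f females (Sox17 KO in the labels), so that all 6 carry the floxed allele. They are called control and mutant from here on. The females were mated at 8 to 10 weeks of age. The iCre stands in the *Ltf* locus and acts in the uterine epithelium from puberty onward, so other *Sox17*-expressing cells of the uterus, such as endothelium, are not its target. The labels number the 3 samples of a genotype without saying how many animals gave each.

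MSX proteins are transcription factors of the NKL subclass of homeobox genes, and their homeodomain binds short AT-rich DNA sites. Bone morphogenetic proteins (BMPs) are known to induce *Msx1* and *Msx2* in many tissues of the embryo. In the mouse uterus *Msx1* is known to be expressed in the luminal and glandular epithelium before implantation, *Msx2* takes over part of its role when *Msx1* is missing, and loss of both in the uterus blocks implantation. *Msx3* is known mainly from the dorsal neural tube.

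The promoters of the 3 genes are shown because the genes share a homeodomain and changed in opposite directions. Each runs from 250 bases before to 50 bases after the annotated start, 5′ to 3′ on the strand of the gene, from RefSeq on GRCm38.p6. The *Msx1* window is chr5:37824536-37824835, the *Msx2* window chr13:53472731-53473030 and the *Msx3* window chr7:140049039-140049338, all on the minus strand. Capitals mark matches on either strand to 3 short motifs, which are ACAAT (the core of SOX sites), CCAAT (the CCAAT box) and TAATT (a core of homeodomain sites).
Msx1: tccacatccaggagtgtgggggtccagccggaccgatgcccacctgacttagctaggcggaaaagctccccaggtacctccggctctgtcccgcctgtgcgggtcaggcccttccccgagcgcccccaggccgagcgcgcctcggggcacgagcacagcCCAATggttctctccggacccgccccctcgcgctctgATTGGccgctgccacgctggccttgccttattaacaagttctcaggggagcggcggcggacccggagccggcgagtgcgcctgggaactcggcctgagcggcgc
Msx2: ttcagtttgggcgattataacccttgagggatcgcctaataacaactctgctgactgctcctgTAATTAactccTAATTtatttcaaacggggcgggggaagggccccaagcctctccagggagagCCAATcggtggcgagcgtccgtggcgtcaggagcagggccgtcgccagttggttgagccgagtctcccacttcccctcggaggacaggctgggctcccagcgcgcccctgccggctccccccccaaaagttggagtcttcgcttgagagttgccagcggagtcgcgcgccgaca
Msx3: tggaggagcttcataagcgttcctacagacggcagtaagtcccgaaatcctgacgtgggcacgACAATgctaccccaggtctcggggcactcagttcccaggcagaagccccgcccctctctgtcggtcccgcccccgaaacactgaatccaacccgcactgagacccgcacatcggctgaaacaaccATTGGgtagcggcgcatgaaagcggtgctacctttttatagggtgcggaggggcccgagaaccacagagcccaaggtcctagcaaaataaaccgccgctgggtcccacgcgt
All 3 windows hold the CCAAT box, *Msx1* at 2 places, and 37.4% of the 32851 RefSeq promoter windows of this length hold it. The *Msx3* window holds 1 SOX core, 187 bases before the start, whereas the *Msx1* and *Msx2* windows do not hold these letters, which 31% of all windows contain. The homeodomain core is found in the *Msx2* window, with 3 matches of which 2 overlap on opposite strands, and in 27% of all windows. A match is a description of the letters and no evidence of binding.

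The 6 arrays were all of 1 slide with each genotype in its own row, so slide row and genotype cannot be told apart. The share of probe spots well above background was 60.7% to 65.7% for the controls and 56.8% to 59.4% for the mutants, and 0 spots were saturated. *Sox17* itself, read by its brighter probe, was 12.21, 12.07 and 12.22 in controls and 9.75, 9.59 and 9.81 in mutants, so every mutant lay below every control (a log2 change of -2.45 with a standard error of 0.09, limma adjusted p = 9.62e-05). All values below are log2 signals after quantile normalization between arrays, as mean ± SD over 3 arrays, and a fold change is mutant over control. A probe was called changed at an unadjusted limma p under 0.01 with a fold change of at least 1.4. The adjusted p is corrected over all 32768 probes tested. Levels of different probes are not compared, since each probe has its own brightness. The marker sums given below add signals of several probes and are compared between arrays only. Precision is limited by the number of arrays.

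The Msx probes were well above background on all 6 arrays and none was saturated. All 3 were called, *Msx2* higher and *Msx1* and *Msx3* lower in mutant uteri. Over all probes tested 9.88% were called, 4.56% higher and 5.32% lower, and 10.6% had an adjusted p under 0.05. For each Msx probe the arrays of the genotypes did not overlap, which held for 34.3% of all probes tested, 16.0% in the direction of *Msx2* and 18.3% in that of *Msx1* and *Msx3*.

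*Msx1*, the member with the best known part in uterine receptivity, read 12.21, 12.08 and 12.52 on the control arrays. On the mutant arrays it read 11.27, 11.06 and 11.63. The highest mutant array thus lay below the lowest control array, and a clear signal remained in all 3 mutant uteri. The mean fell from 12.27 ± 0.23 (SD, n = 3 arrays) to 11.32 ± 0.29 (SD, n = 3), a log2 change of -0.95 (standard error 0.18, 95% confidence interval -1.40 to -0.50, limma adjusted p = 0.0283), or 1.93-fold lower. On the linear scale the deposited processed signal went from 5185 ± 942 to 2530 ± 595 (SD, n = 3 each) before any normalization between arrays. *Msx1* was no longer called when its variance was not moderated across probes (its p for that 1 probe was 0.0107, over the threshold of 0.01). With each array left out in turn it was still called, although its adjusted p was above 0.05 in 5 of 6 cases, between 0.0299 without mutant replicate 3 and 0.0933 without mutant replicate 1.

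*Msx2*, the close relative of *Msx1* and a BMP-induced gene of skin, bone and the reproductive tract, went the other way. It read 8.27, 7.86 and 7.79 on the control arrays. On the mutant arrays it read 10.29, 10.02 and 10.25. The gap between the groups was several times wider than the spread inside either. The mean rose from 7.97 ± 0.26 (SD, n = 3) to 10.19 ± 0.14 (SD, n = 3), a log2 change of 2.21 (standard error 0.16, 95% confidence interval 1.83 to 2.59, limma adjusted p = 0.000773), or 4.64-fold higher. The processed signal went from 256 ± 32.3 to 1151 ± 160 (SD, n = 3 each). Among the 14856 genes tested, each represented by its brightest probe, *Msx2* had the 146th highest fold change, and 2.0% of genes had a larger change in either direction.

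*Msx3*, the member of the neural tube, gave a low signal that was still well above background on every array. Its processed signal was 95.4, 116 and 98.2 on the control arrays. On the mutant arrays it was 37.1, 34.4 and 60.4. The third mutant array stood above the other 2 of its genotype and still under all control arrays. After normalization the mean fell from 6.67 ± 0.16 (SD, n = 3) to 5.45 ± 0.40 (SD, n = 3), a log2 change of -1.22 (standard error 0.21, 95% confidence interval -1.75 to -0.70, limma adjusted p = 0.0203), or 2.34-fold lower. With normexp background correction, which adds an offset of 50 to each spot, the log2 fold change of *Msx3* was -0.59 and it was still called. With each array left out in turn its log2 fold change lay between -1.45 and -1.11 and its adjusted p was above 0.05 in 4 of 6 cases, at most 0.0693.

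**Figure D1:**
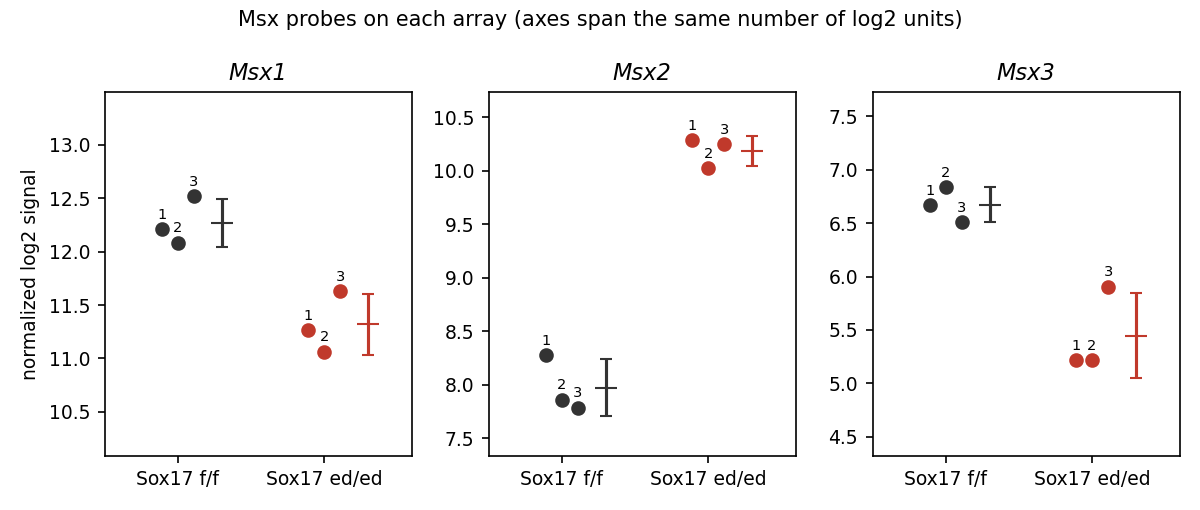
Normalized log2 signal of the *Msx1*, *Msx2* and *Msx3* probes (vertical axes, each spanning the same number of log2 units) on the 3 *Sox17* f/f arrays (black) and the 3 *Sox17* ed/ed arrays (red). Points are single arrays with their replicate numbers, and bars are the mean ± SD (n = 3). The *Sox17* ed/ed points lie below all *Sox17* f/f points for *Msx1* and *Msx3* and above them for *Msx2*.

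The changes of the members were also set against each other within arrays. The log2 fold change of *Msx2* exceeded that of *Msx1* by 3.16 and that of *Msx3* by 3.44. The SD of the within-array difference between *Msx2* and *Msx1* was 0.40 over the control arrays and 0.22 over the mutant arrays, so the divergence was larger than the spread between arrays. The change of *Msx3* minus that of *Msx1* was -0.27 on the log2 scale (exact permutation test, two-sided, p = 0.3), and after normexp background correction the sign of this difference turned, to 0.34. For both differences with *Msx2*, as for each member alone, the exact permutation test gave p = 0.1, two-sided, the smallest p that 3 arrays against 3 allow. Over the 3 pairs compared, the Benjamini-Hochberg adjusted p was 0.15 for those with *Msx2* and 0.3 for *Msx3* with *Msx1*.

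**Figure D2:**
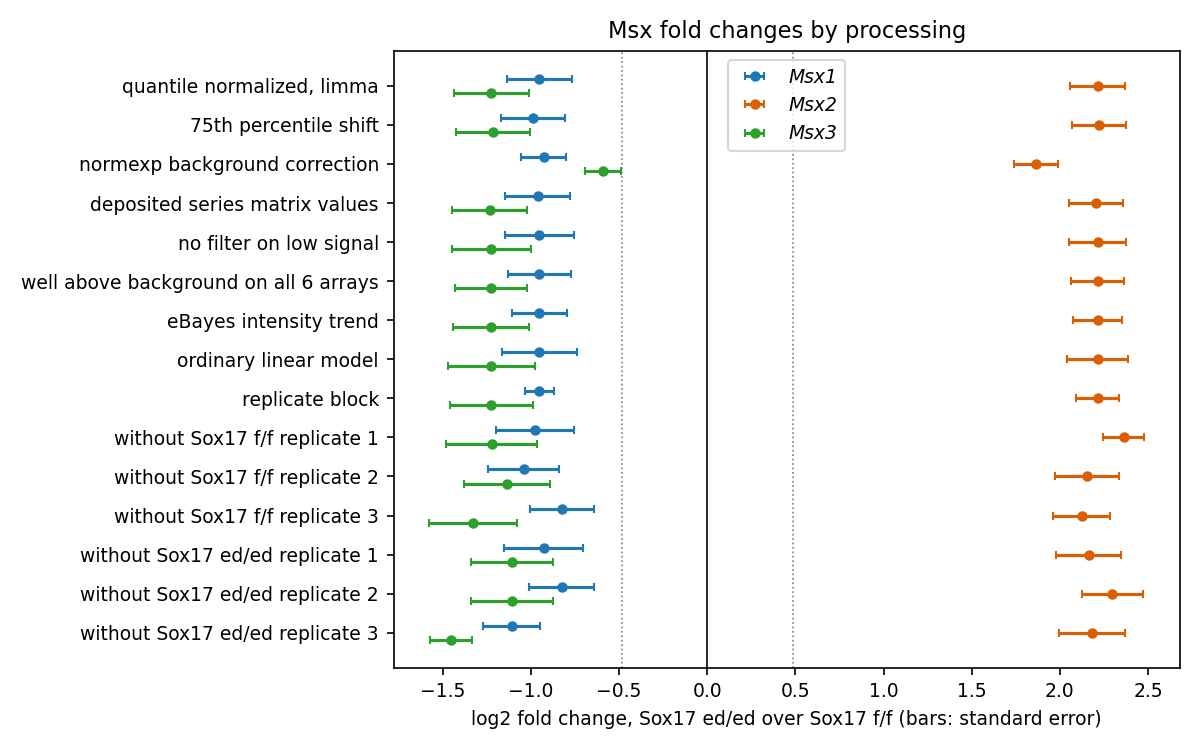
Log2 fold change of *Msx1* (blue), *Msx2* (orange) and *Msx3* (green), *Sox17* ed/ed over *Sox17* f/f (horizontal axis), with its standard error, for the values reported and for each other way of processing the arrays. Dotted lines mark a fold change of 1.4 in either direction. *Msx2* stays between 1.86 and 2.36 and *Msx1* between -1.11 and -0.82, while *Msx3* moves to -0.59 with normexp background correction.

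The spread between arrays differed between members. The SD of *Msx1* was 0.23 in control and 0.29 in mutant uteri, where the medians over all probes tested were 0.13 and 0.13. Of all genes tested, 20.2% varied more between control arrays and 10.7% more between mutant arrays. *Msx2* varied more than most genes in control uteri, where 15.9% of genes had a larger SD, and less so in mutant uteri, where 36.6% did. For *Msx3* the SD between mutant arrays was 0.40, a value that 5.57% of genes exceeded.

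**Figure D3:**
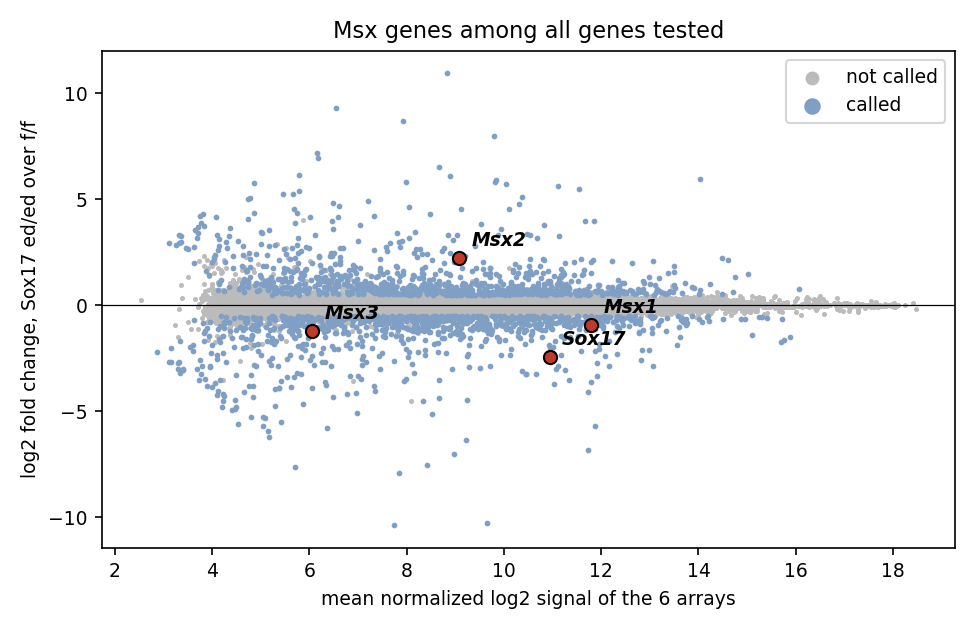
Log2 fold change, *Sox17* ed/ed over *Sox17* f/f (vertical axis), against the mean normalized log2 signal of the 6 arrays (horizontal axis) for the 14856 genes tested, each by its brightest probe. Genes called are blue, the others grey, and the 3 Msx genes and *Sox17* are red. *Msx2* lies among the genes that rose, with 2.0% of genes having a larger absolute change, against 4.6% for *Msx3* and 6.63% for *Msx1*.

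The lists that follow are set beside the 12.0% of all genes tested that were called, 5.80% higher and 6.24% lower. Of 42 other NKL homeobox genes, the relatives of the Msx genes, 15 had a probe above background on at least 3 arrays and were tested, and 1 was called, a share near that background. The gene called was *Emx2*, a factor of the developing urogenital tract, which rose from 8.89 ± 0.11 to 9.60 ± 0.13 (SD, n = 3 each), a log2 change of 0.71 (standard error 0.10, limma adjusted p = 0.0105). Their median log2 fold change was -0.01, against 0.00 over all genes tested. *Dlx5* and *Dlx6*, whose proteins bind DNA sites like those of MSX proteins and can pair with them, gave log2 fold changes of 0.08 (standard error 0.12, limma adjusted p = 0.702) and -0.01 (standard error 0.17, limma adjusted p = 0.987).

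The BMP pathway, whose ligands induce *Msx1* and *Msx2* elsewhere in the body, was described from ligands to targets. Of 8 ligands, 6 were tested and 1 was called, which is near the 12.0% of all genes. This was *Gdf7*, a BMP-related growth factor, with a log2 change of 0.49 (limma adjusted p = 0.0167), hardly past the fold threshold, which is 0.49 on the log2 scale. It was not called without control replicate 1, mutant replicate 1 or mutant replicate 2, when 0 ligands were called. *Bmp2*, the ligand of decidualizing stroma, read 9.28 ± 0.10 in control and 9.37 ± 0.11 in mutant uteri (SD, n = 3 each), a log2 change of 0.09 (limma adjusted p = 0.604). *Bmp4* gave 0.22 (limma adjusted p = 0.182).

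All 8 BMP receptors and Smads were tested and 1 was called, again near the 12.0% of all genes, the type I receptor gene *Bmpr1b*. It read 5.61, 4.98 and 5.14 on the control arrays and 7.77, 7.36 and 7.63 on the mutant arrays. The groups lay far apart, and the log2 fold change was 2.34 (standard error 0.19, limma adjusted p = 0.00145), with 2.27 from its other tested probe. The other 7 were not called.

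Of 10 BMP inhibitors 9 were tested. Among the 7 measured well above background on all 6 arrays, 2 were called, both lower in mutant uteri. Of all genes tested, a wider set that needed only 3 arrays above background, 6.24% were called lower. The 2 inhibitors were *Chrdl1* and *Fst*, which bind BMPs and activins outside the cell, with log2 fold changes of -0.76 and -0.63. One of the 3 tested *Chrdl1* probes was not called. *Grem1* and *Sostdc1* were called lower as well, but the arrays of the control group alone sufficed to bring them into the test. *Grem1*, a secreted protein that binds BMPs, read 6.16 ± 0.36 and 4.46 ± 0.38 (SD, n = 3 each), a log2 change of -1.71 (limma adjusted p = 0.0122), although only 1 of the 3 mutant arrays measured it well above background. *Sostdc1*, an inhibitor of BMP and Wnt ligands, was under the background limit on all mutant arrays and at least 2.14-fold lower, a direction that the filter on dim probes fixed, and its other tested probe was not called.

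The Id genes encode inhibitors of helix-loop-helix factors and are common targets of BMP signalling. Of the 4, all tested, 3 were called and all 3 were higher in mutant uteri, where 5.80% of all genes tested were called higher. *Id3* read 12.47 ± 0.06 in control and 13.25 ± 0.05 in mutant uteri (SD, n = 3 each), a log2 change of 0.77 (standard error 0.07, limma adjusted p = 0.00218). *Id1* and *Id2* rose by 0.65 each, and *Id4* gave -0.07 (limma adjusted p = 0.745). *Id1* lost its call without mutant replicate 2 or mutant replicate 3, and when variances were not moderated across probes. The median over the list was 0.65, against 0.00 over all genes tested, and none changed by a factor of 2.

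Wnt and fibroblast growth factor (FGF) ligands were listed because uteri without *Msx1* and *Msx2* are known to make more of several of them. Of 19 Wnt ligands 11 were tested, and 3 were called higher and 1 lower, beside 5.80% and 6.24% of all genes. *Wnt4* rose from 6.65 ± 0.06 to 8.26 ± 0.26 (SD, n = 3 each), a log2 change of 1.61 (standard error 0.14, limma adjusted p = 0.00167). *Wnt7b* rose by 2.83 (limma adjusted p = 0.00343) and *Wnt16* by 0.90. *Wnt11* fell from 9.03 ± 0.28 to 4.90 ± 0.09 (SD, n = 3 each), a log2 change of -4.13 (limma adjusted p = 8.73e-05). *Wnt5a*, a ligand of the planar polarity branch, read 11.88 ± 0.04 and 11.95 ± 0.09 (SD, n = 3 each) and gave 0.07 (limma adjusted p = 0.649). *Wnt7a*, the epithelial Wnt ligand of the uterus, gave 0.88 (standard error 0.25, limma adjusted p = 0.0835) and was not called.

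Of 18 FGF ligands 8 were tested, 1 called higher and 2 lower, beside 5.80% and 6.24% of all genes. *Fgf10*, a stromal ligand that acts on epithelium, rose from 5.98 ± 0.28 to 7.29 ± 0.18 (SD, n = 3 each), a log2 change of 1.31 (standard error 0.17, limma adjusted p = 0.00765). *Fgf18* fell by 0.73 and *Fgf7*, which also signals from stroma to epithelium, by 0.65 on the log2 scale. *Fgf18* was not called without control replicate 2, mutant replicate 1 or mutant replicate 2, nor when variances were not moderated across probes. *Fgf9* gave 0.85 (standard error 0.44, limma adjusted p = 0.285), and its SD among the controls was 0.77.

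Genes of cadherin adhesion and planar polarity were listed because the uterine epithelium of Msx mutants is known to keep its apical-basal polarity. All 18 were tested, with 1 higher, 1 lower and 16 not called, a share near the 12.0% of all genes. *Cdh1*, which encodes E-cadherin, rose from 10.32 ± 0.12 to 10.90 ± 0.15 (SD, n = 3 each), a log2 change of 0.59 (standard error 0.11, limma adjusted p = 0.0259). *Ror2*, a receptor for WNT5A, fell by 0.54 on the log2 scale. *Ctnnb1*, which encodes beta-catenin, gave -0.02 (limma adjusted p = 0.866). *Ror2* was not called without control replicate 2 or mutant replicate 1, and *Cdh1* was not called with the replicate number as a block.

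**Figure D4:**
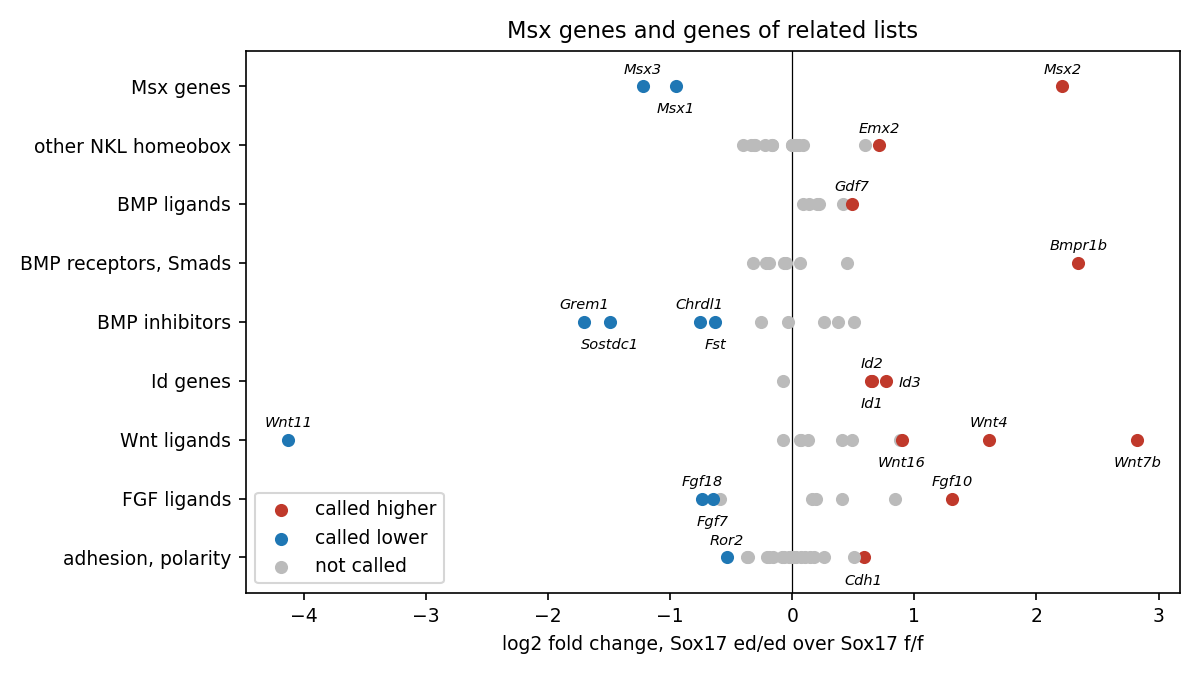
Log2 fold change, *Sox17* ed/ed over *Sox17* f/f (horizontal axis), of the 3 Msx genes and of the tested genes of 8 related lists (rows), each point a gene by its brightest probe. Red points were called higher, blue points lower and grey points were not called. *Bmpr1b* (2.34) lies close to *Msx2* (2.21), the 4 BMP inhibitors called, of which 2 were above background on all 6 arrays, lie to the left and the 3 Id genes called to the right.

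Among 19 steroid receptor and implantation genes, 17 were well above background on all 6 arrays, of which 3 were called higher and 4 lower. Over all genes tested, a wider set that needed only 3 arrays above background, the shares were 5.80% and 6.24%. *Lif* and *Areg* were above background in controls alone, so that they could only be called lower and are given as bounds. *Pgr* and *Esr1*, the genes of the progesterone and estrogen receptors, gave 0.01 (limma adjusted p = 0.960) and -0.04 (limma adjusted p = 0.785). *Ihh*, the progesterone-induced hedgehog ligand of the epithelium, had a log2 change of -3.01, and *Lif*, the cytokine that lowers *Msx1* at the time of attachment, was at least 3.75-fold lower, being under the background limit on all mutant arrays. *Muc1*, a mucin of the apical surface of the epithelium, rose by 1.84 (standard error 0.14, limma adjusted p = 0.00100). *Areg*, a ligand of the epidermal growth factor receptor, was at least 11.5-fold lower. *Foxa2*, a factor of the uterine glands, gave -4.51, and *Ltf*, the estrogen-induced gene whose locus carries the iCre, gave 5.63. *Hand2*, a progesterone-induced factor of the stroma, gave 0.32 (limma adjusted p = 0.182).

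For each Msx gene the 5 genes with the most similar pattern were taken, by the root mean square difference of centred log2 signals over the 6 arrays, among 14762 other genes. Since the genotype difference dominates such a pattern, these are genes that changed by a similar amount and with a similar spread. For *Msx2* the closest was *Bmpr1b*, with a root mean square difference of 0.11, followed by *D630039A03Rik*, *Mal*, *Gjb1*, which encodes a gap junction protein, and *Plekhg6*. Their log2 fold changes lay between 2.02 and 2.46. For *Msx1* they were *Ttyh1* (0.11), *Mtcl1*, *C2cd4b*, *Cmtm8* and *Actn2*, with log2 fold changes from -1.01 to -0.86. For *Msx3* they were *Hs3st1* (0.17), *Esrp2*, a splicing factor of epithelia, *Siglec1*, a macrophage receptor, *Adgrd1* and the chemokine gene *Ccl2*, with -1.18 to -0.96.

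**Figure D5:**
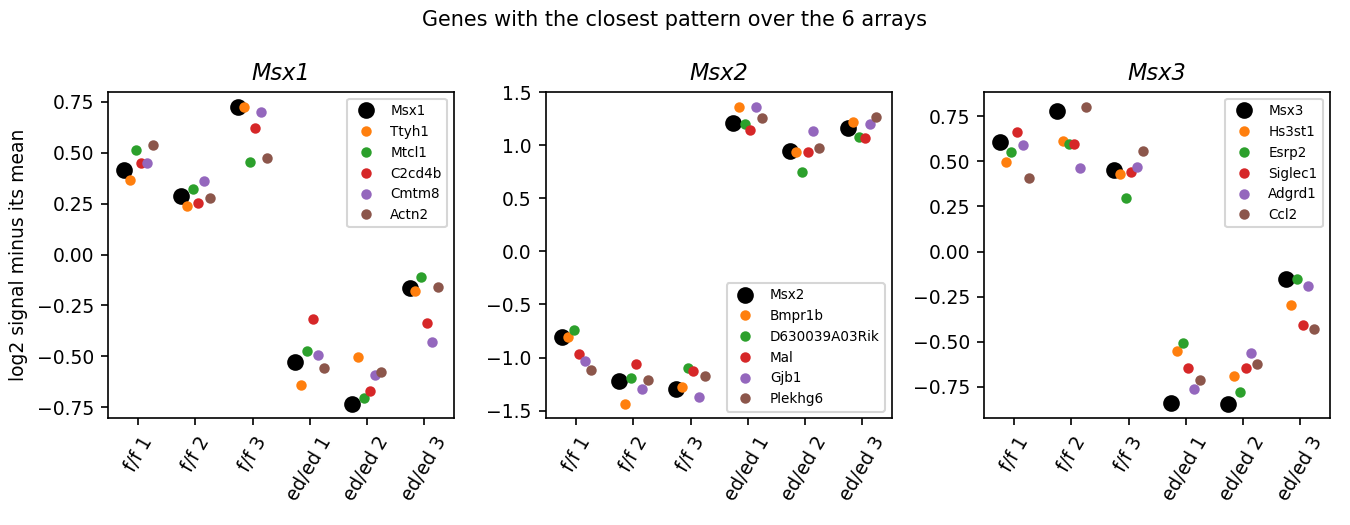
Log2 signal minus its mean over the 6 arrays (vertical axis) for each Msx gene (large black points) and the 5 genes with the most similar pattern (small coloured points), on the 3 *Sox17* f/f and the 3 *Sox17* ed/ed arrays (horizontal axis). In the *Msx1* panel the third array of each genotype reads highest for *Msx1*, and in the *Msx2* panel *Bmpr1b* follows *Msx2* with a root mean square difference of 0.11.

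In whole uteri, fewer cells of a type and less RNA per cell cannot be told apart, so markers of the cell types are given beside the Msx values. Of all genes tested 12.0% were called, 5.80% higher and 6.24% lower. Of 13 epithelial markers, 5 were called higher and 2 lower, and 9 had an unadjusted limma p under 0.05. Among those called higher, *Krt8* (limma adjusted p = 0.0604) kept its call with 1 array left out only without mutant replicate 2. It was not called without a filter on dim probes or with variances not moderated across probes. With the replicate number as a block, neither *Krt8* nor *Cdh1* was called. The summed linear signal of the 13 epithelial markers was 56368 to 59532 on the control arrays and 56916 to 70095 on the mutant arrays, so that the ranges overlap. Each such sum is set mostly by the brightest probes of its list. Of 12 stromal markers 0 were called, although 4 had an unadjusted limma p under 0.05. Of these 4, *Hand2*, *Hoxa10* and *Hoxa11* had log2 fold changes of 0.32, 0.34 and 0.17, and *Dcn*, with a bright probe, had -0.42. The median log2 fold change over the 12 was 0.01. Their sum, in which *Dcn* weighs heavily, was 356948 to 365995 in controls and 319265 to 343414 in mutants. Of 8 smooth muscle markers 1 (*Actg2*) was called lower, a share near the 12.0% of all genes, and 4 had an unadjusted limma p under 0.05. The sum was 481897 to 529027 on control and 353728 to 426212 on mutant arrays. Of 9 endothelial markers 2 (*Vwf* and *Esam*) were called lower. Neither was called with the replicate number as a block. *Vwf* also lost its call without control replicate 1, without mutant replicate 3 and with variances not moderated across probes. An unadjusted limma p under 0.01 was found for 6 of the 9 endothelial markers, and the log2 fold changes of all 9 lay between -0.84 and -0.08. The endothelial sum was 22537 to 26716 on control and 16257 to 18259 on mutant arrays. Of 9 leukocyte markers tested 1 (*Cd14*) was called lower, again a share near the 12.0% of all genes. The study lists *Cd14* with genes of the uterine epithelium. The median log2 fold change of the 9 leukocyte markers was 0.09, and an unadjusted limma p under 0.05 was found for 4 of them. Their sums were 31439 to 32939 in controls and 34260 to 36435 in mutants. Of 7 oviduct and ciliated cell markers tested 1 (*Foxj1*) was higher and 2 (*Ovgp1* and *Dnah5*) were lower, of which *Ovgp1* was measured on all 6 arrays, with sums of 20294 to 22133 and 19041 to 21967. Of 7 squamous markers tested 4 were well above background on all 6 arrays. Of these 4, 0 were called by limma, with 1 (*Lor*) at an unadjusted p under 0.05. The sum over the 7 was 3251 to 3776 in controls and 4118 to 4613 in mutants. That sum includes *Krt5* and *Krt15*, which entered the test through the mutant arrays alone, so its direction is not a result. The keratin genes *Krt5* and *Krt15* were above background in the mutants alone, so that they could only be called higher. *Krt15* was at least 62.8-fold higher. *Krt5* was at least 5.25-fold higher (limma adjusted p = 0.0711), or at least 2.83-fold without mutant replicate 1. It was not called with the 75th percentile shift, normexp, the series matrix values or the replicate number as a block. Nor was it called without a filter on dim probes or with variances not moderated across probes. Without any 1 control array *Krt5* was not called, and without any 1 mutant array it was not tested. The marker genes named here were picked after their values were seen. The part of these shifts in the Msx values was not tested.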

How the data were processed

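Total RNA of 6 samples of GD 3.5 uterus had been labelled and hybridized to 1-colour Agilent mouse arrays. The authors deposited the scanner files, whose intensity values (gProcessedSignal) are background-subtracted linear signals made by Agilent Feature Extraction, version 11.0.1.1 per the file headers and 9.1 in the submitters' processing notes. The deposited series matrix held the same signals to within 0.191% and was used as an alternative. Control spots and outlier spots (169 to 302 an array) were left out, spots of a probe were averaged, and log2 signals were quantile normalized. Of 55681 probes, 26582 were matched by RefSeq accession to 20145 genes, and the 32768 probes well above background on at least 3 arrays were tested with limma 3.58.1 (R 4.3.3) with moderated variances, Benjamini-Hochberg adjustment and the call rule of p under 0.01 with a fold of at least 1.4, which follows the study's methods. The labels do not say that samples of a genotype came from separate animals, so p-values measure the spread between these samples. A gene with several probes is given by its brightest tested probe. The fit was tested on simulated data. Named were all Msx probes, *Sox17*, a list of lead genes whatever their values (1 is not reported here), up to 4 called members of each list with the largest changes, and the 5 genes most like each member. For a probe under background in a whole group, the fold is a lower bound set against the lowest signal well above background. Alternatives were a 75th percentile shift, normexp with an offset of 50 on median signals (added after the data were seen, since the files hold no mean signal), the series matrix, other filters on dim probes, an intensity trend, an ordinary linear model, the replicate number as a block, leaving out each array, a fold of 2 and the probe with the smallest p. The members and gene lists were chosen with earlier results of these data known. Figures were drawn with matplotlib 3.10.9 (Python 3.11.15).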

Additional observations from a re-analysis of the deposited data

How the results depend on the processing

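All 3 Msx genes kept their direction in each alternative run, and *Msx2* and *Msx3* were called in each. *Msx1* was not called in the ordinary linear model (log2 fold change -0.95), nor, at 1.93-fold, would it pass a fold of 2. The difference of *Msx3* minus *Msx1* turned to 0.34 with normexp background correction, and the cause was not tested. Leaving out 1 array at a time gave -1.11 to -0.82 for *Msx1*, 2.12 to 2.36 for *Msx2* and -1.45 to -1.11 for *Msx3*. At a fold change of at least 2, 1417 of the 32768 probes tested were called in place of 3236. The genes called were then 0 NKL, 0 BMP ligand, 1 BMP receptor or Smad, 2 BMP inhibitor and 0 Id genes. These inhibitors were *Grem1* and *Sostdc1*, which the control arrays alone brought into the test, while *Chrdl1* and *Fst* fell short of that fold. In the other lists the genes called were 3 Wnt, 1 FGF, 0 adhesion and polarity and 7 steroid receptor and implantation genes. Among the 7 were *Lif* and *Areg*, which were above background in controls alone. With normexp, and with the series matrix values, 0 BMP ligands were called. Without a filter 2 NKL genes were called, and among probes well above background on all 6 arrays 2 BMP inhibitors (*Chrdl1* and *Fst*). Leaving out 1 array gave 0 to 1 BMP ligands and 1 to 2 adhesion and polarity genes, with *Ror2* lost in 2 of the 6 cases. With the replicate number as a block, 3025 probes and 1 adhesion and polarity gene were called, and the limma adjusted p was 0.0180 for *Msx1*, 0.00760 for *Msx2* and 0.0785 for *Msx3*, all still called. Same-numbered samples did not deviate together (correlations of 0.06, -0.04 and 0.01 across probes), so the numbers were not taken as pairs. For *Msx3* the processed signal was low, 34.4 to 116, and its log2 fold change moved to -0.59 with normexp background correction. The part of the low signal in the size of the *Msx3* fold change was not tested.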

Other observations

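The protein-coding genes next to each Msx gene in the RefSeq order were read as well, chosen by position. Beside *Msx1*, *Stx18*, a syntaxin gene of vesicle transport, fell from 12.94 ± 0.06 to 10.79 ± 0.07 (SD, n = 3 arrays each; a log2 change of -2.16 with a standard error of 0.08, limma adjusted p = 6.99e-05). *Cytl1*, a secreted cytokine-like protein gene on the other side of *Msx1*, rose from 5.90 ± 0.23 to 6.91 ± 0.02 (SD, n = 3 each; 1.01, standard error 0.13, limma adjusted p = 0.00675). Beside *Msx3*, *Zfp511* gave 0.07 (limma adjusted p = 0.716) and *Caly* 0.16 (limma adjusted p = 0.507), and neither was called. Beside *Msx2*, *Drd1* was too dim to be tested and *Gm38564* had no matched probe. The antisense gene *Msx1os* had no matched probe.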
